A study of Capra hircus with 40 samples.

Results

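The uterus of female Jining gray goats at month 6 after birth was compared with that at month 4, in 5 libraries a side. The comparison took the 10 libraries of these ages out of 40 in the series, which holds ovary and uterus at day 1 and at months 2, 4 and 6. Each library was made from total RNA of an individual numbered 1 to 5 within its tissue and age. Whether a shared number marks the same goat is not stated. All goats were raised alike on a single farm, with no treatment given in the labels. The labels name uterine tissue and give no part of the organ, estrous stage, batch or date. Mature miRNAs were measured as read counts over 427 table entries, and levels are given as CPM, the count scaled to the total of its library. Nothing in the labels says which cells of the uterus entered each piece, and fewer cells of a type and less RNA per cell cannot be told apart in such tissue.

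A miRNA is a short RNA cut from a hairpin precursor, and it lowers the output of messenger RNAs that match its seed, the bases near its 5′ end. Precursors that lie close together in the genome are often made from 1 transcript, so members of such clusters tend to move together. The uterus is built of an endometrium, with luminal and glandular epithelium over a stroma, and of a myometrium of smooth muscle, and its glands form and mature after birth. The miR-200 family is a well-known marker of epithelial cells, where it represses the ZEB transcription factors and so maintains E-cadherin, while miR-143 and miR-145 mark smooth muscle.

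Library totals ran from 5502590 to 7810740 counts at month 4 and from 7026500 to 7835510 at month 6, and 334 to 373 miRNAs were detected per library. In exact two-sided permutation tests over the 10 libraries, neither the totals (p = 0.294) nor the number of detected miRNAs (p = 0.397) parted the ages, nor did the shares of the most abundant miRNA (p = 0.921) or of the 10 most abundant (p = 0.683). Adjusted over these 4 measures, the p-values were 0.794 to 0.921. The most abundant miRNA was miR-143-3p in all 5 libraries of month 6 and in 3 of month 4, where miR-10b-5p led in replicate 1 and let-7a-5p in replicate 3. The ovarian granulosa cell miRNA miR-202-5p was at 0 to 0.954 CPM, so this ovarian marker was nearly absent. Month 4 replicate 4 and month 6 replicates 4 and 5 stood apart from the other 7 libraries. They resembled each other across ages (Spearman rho 0.978 to 0.984) more than the others (0.888 to 0.957). Among the other 7, rho ran from 0.899 to 0.985, so these 7 were not a single tight group. In the 3, let-7a-5p was at 28359, 17537 and 23140 CPM, against 67549 to 122967 CPM in the others. Their let-7b-3p was at 2209, 2489 and 1198 CPM, against 39.6 to 411 CPM. Month 4 replicate 5 was also unlike the rest, with a mean rho of 0.914 to each age, below the 0.932 to 0.951 of the 3. The part these libraries have in the results was not tested beyond leaving them out. Values below are for all 10 libraries unless they are said to be without the 3.

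No miRNA passed the test between month 4 and month 6. Of 331 miRNAs tested by edgeR's quasi-likelihood test on all 20 uterus libraries, 0 (0%) had an adjusted p under 0.05, and the smallest adjusted p was 0.460. By the Wald test of DESeq2 1 miRNA passed, miR-429 (log2 change 2.67, adjusted p = 0.0220). At an unadjusted p under 0.05, edgeR placed 13 miRNAs higher (3.93%) and 2 lower (0.604%) at month 6, 15 in all (4.53%). In no tested miRNA were all 5 libraries of an age above all 5 of the other (0% in each direction). The median log2 change over all tested miRNAs was 0.07, and it was -0.04 with DESeq2 size factors and 0.17 with library totals alone. The unadjusted split moved with the scaling, to 9 higher and 10 lower with size factors and to 17 and 1 with library totals, so directions of small changes are relative to that median. The median standard error (SE) of a log2 change was 0.467, and 0.418 for miRNAs with at least 10 CPM.

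The miRNA with the smallest unadjusted p, miR-429, belongs to the epithelial miR-200 family. This family is encoded at 2 places: MIR429, MIR200A and MIR200B neighbour each other in the RefSeq goat assembly ARS1.2, and MIR141 neighbours MIR200C. None of the 5 members was called, 5 of 5 had a change above 0, and the 3 with an unadjusted p under 0.05 were those of the first place. The median log2 change of the family was 1.75, against 0.07 over all miRNAs tested, and 2.33 against -0.06 without the 3 libraries that stand apart.

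The month 4 levels of miR-429, in replicates 1 to 5, were 10.1, 24.3, 14.5, 8.43 and 1.09 CPM, and those of month 6 were 143, 172, 80.0, 5.84 and 15.9 CPM. Replicates 1, 2 and 3 of month 6 were above every month 4 library, while replicates 4 and 5 lay within the month 4 range. Its log2 change was 2.61 ± 0.71 (SE), a 6.11-fold difference with a 95% interval of 1.13 to 4.09 on the log2 scale (edgeR unadjusted p = 0.00149, adjusted p = 0.460).

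For miR-200a the month 4 levels were 744, 669, 826, 1028 and 47.1 CPM, and the month 6 levels 4347, 6820, 1953, 682 and 1294 CPM. All month 6 libraries but replicate 4 were above the month 4 maximum, and the log2 change was 1.94 ± 0.64 (edgeR adjusted p = 0.663). The levels of miR-200b ran over 5240, 9504, 8200, 3420 and 816 CPM at month 4 and over 27976, 44671, 23370, 3872 and 4792 CPM at month 6. Again replicates 1, 2 and 3 of month 6 exceeded every month 4 library, with a log2 change of 1.75 ± 0.62 (edgeR adjusted p = 0.670). Month 4 replicate 5 was the lowest of all 10 libraries for each of these 3 miRNAs.

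The members of the second place had smaller log2 changes. miR-200c was at 1812, 2260, 2595, 1572 and 98.0 CPM at month 4 and at 2776, 5045, 3619, 1698 and 2298 CPM at month 6, a log2 change of 0.72 ± 0.52 with a 95% interval of -0.37 to 1.81. Here too the first 3 replicates of month 6 were the highest of all libraries. The scarce miR-141 had levels of 4.35, 4.22, 4.27, 27.8 and 0.182 CPM at month 4 and of 7.66, 13.8, 3.98, 12.0 and 22.4 CPM at month 6, a log2 change of 0.32 ± 0.82. Its highest levels were in 2 of the libraries that stand apart. Whether the members of the 2 places differ in their change was not tested, and members of this family resemble each other in sequence.

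**Figure D1:**
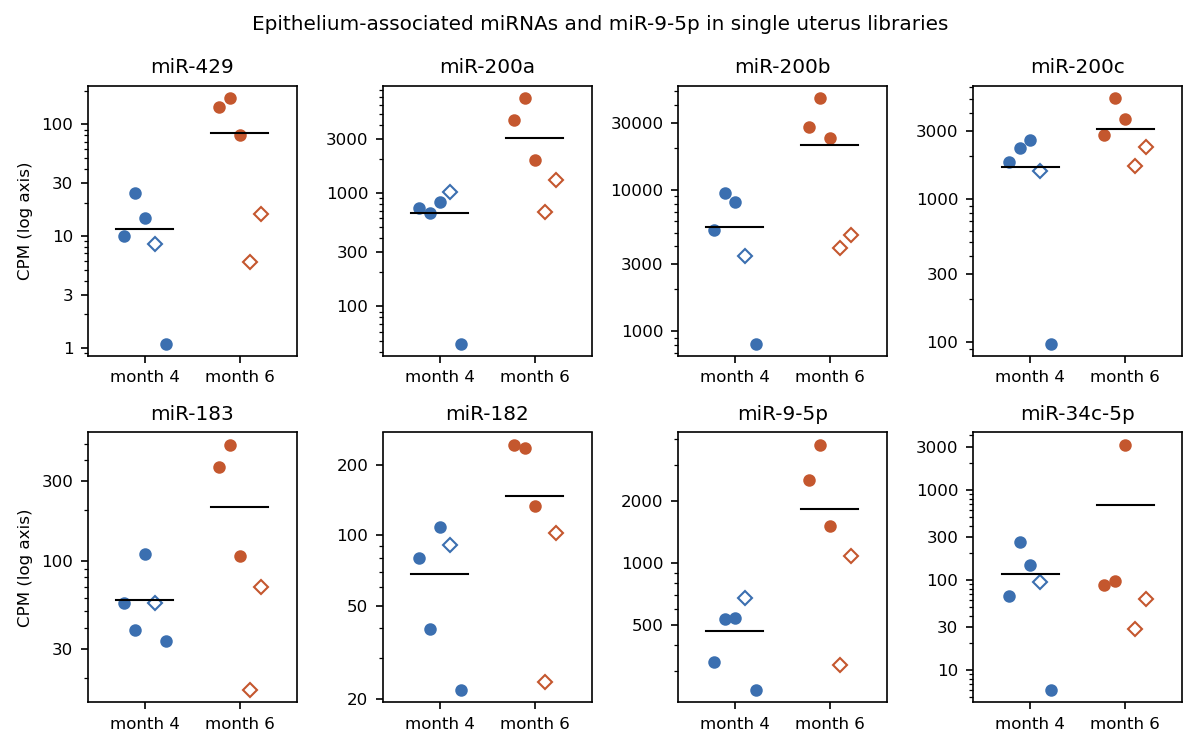
Level (CPM, log axis) of 8 miRNAs in the 5 uterus libraries of month 4 (blue) and the 5 of month 6 (orange), with the mean of each age as a black line. Open diamonds are the 3 libraries that stand apart. For miR-429 and miR-200b, the 3 filled month 6 points lie above every month 4 point, and the 2 open ones lie within the month 4 range.

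The cluster of miR-183, miR-96 and miR-182 is transcribed as a unit and is known from sensory and other epithelia. Of its 3 members 0 were called, 3 had a change above 0 and 1 an unadjusted p under 0.05, with a median of 1.02 (1.63 without the 3 libraries). The levels of miR-183 were 56.4, 38.5, 110, 56.4 and 33.1 CPM at month 4 and 365, 493, 107, 16.9 and 70.1 CPM at month 6 (log2 change 1.65 ± 0.61). Replicates 1 and 2 of month 6 were high, while replicate 4 was the lowest of all 10 libraries. The same 2 libraries led in miR-182, at 244 and 235 CPM, against 21.8 to 108 CPM at month 4 (log2 change 0.89 ± 0.55). miR-96 stayed at or under 4.54 CPM in every library.

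The miR-34/miR-449 family is abundant in ciliated epithelium, such as that of the oviduct and parts of the endometrium. Of 10 table entries 5 passed the low-count filter, 0 were called, and all 5 had changes above 0 with a median of 1.92. Without the 3 libraries that stand apart 8 entries passed the filter, with a median of 2.64. These changes rested on 1 library. miR-34c-5p was at 66.5, 266, 148, 94.4 and 6.00 CPM at month 4 and at 88.8, 96.6, 3157, 28.7 and 61.2 CPM at month 6. The 3157 CPM of month 6 replicate 3 stood far above all others, and the other 4 libraries of month 6 lay within the month 4 range. Without that library the log2 change turned from 2.37 to -0.83 and the median of the family to -0.83. miR-449a-5p was at 333 CPM in month 6 replicate 3 and at most 6.42 CPM in the other month 6 libraries. Its change turned from 2.57 to -2.60 without replicate 3. The library highest in these ciliated cell miRNAs was not one of the pair, replicates 1 and 2, that led in miR-183 and miR-200b.

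Among other epithelial miRNAs, 3 of 4 entries passed the filter, with a median of -0.11 (-0.32 without the 3 libraries) and 0 called. The list also names miR-203, miR-205 and miR-375, which have no table entry, so its tested members were only miR-192-5p, miR-194 and miR-215-5p. miR-192-5p ran from 114 to 440 CPM at month 4 and from 127 to 524 CPM at month 6. Its near relative miR-215-5p, which shares the seed of miR-192, was the only list member lower at an unadjusted p under 0.05 (log2 change -1.92 ± 0.78, adjusted p = 0.926). It was scarce, at 1.40, 1.66, 3.17, 5.72 and 1.82 CPM at month 4 and 0.383, 0, 0, 0.854 and 2.61 CPM at month 6. Replicates 1 to 4 of month 6 were all below the month 4 minimum. In these libraries 3 counts correspond to 0.383 to 0.545 CPM, so the low values rest on a few reads.

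miR-9, best known from the developing nervous system, also lay near the top of the comparison in both arms of its hairpin. miR-9-5p was at 334, 539, 544, 682 and 243 CPM at month 4 and at 2527, 3760, 1516, 322 and 1083 CPM at month 6. All month 6 libraries but replicate 4 were above the month 4 maximum, and the log2 change was 1.77 ± 0.52, with a 95% interval of 0.69 to 2.85 (edgeR adjusted p = 0.460). The other arm, miR-9-3p, was at 1.28 to 3.66 CPM at month 4 and at 2.99 to 12.8 CPM at month 6 (log2 change 1.63 ± 0.55). It is listed with neural and neuroendocrine miRNAs, of which 0 of 6 were called. The 2 members at an unadjusted p under 0.05 were the arms of miR-9, and the median of the list was 0.27 (0.33 without the 3 libraries).

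miR-204-5p and miR-211, near-identical miRNAs known from retinal pigment epithelium, were high in the same 2 libraries. miR-204-5p was at 246, 160, 285, 311 and 670 CPM at month 4 and at 1193, 3811, 113, 253 and 256 CPM at month 6 (log2 change 1.64 ± 0.70). Replicates 1 and 2 of month 6 were far above the rest, while replicate 3 was the lowest of all. miR-211 reached 16.2 and 44.5 CPM in those 2 libraries, and 2.99 to 10.4 CPM in the other 8, a pattern to be read with care because reads of the near-identical pair may have been shared. miR-187 was at 1.27 to 5.76 CPM at month 4 and at 3.42 to 19.1 CPM at month 6 (log2 change 1.25 ± 0.55).

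Neighbouring miRNA genes could be followed for 423 of the 427 entries, matched by name to RefSeq miRNA genes. Of 37 groups of genes within 10000 bases with at least 2 tested members, 24 had a median above 0 and 13 below. The 3 highest medians were those of MIR429, MIR200A and MIR200B (1.94), of MIR34C and MIR34B (1.92) and of the miR-183 cluster (1.02), and the lowest was that of MIR105B, MIR767 and MIR105A (-1.45). MIR374B and MIR421 followed with a median of 0.75. miR-421-3p was at 8.99, 14.5, 10.6, 13.2 and 9.27 CPM at month 4 and at 24.5, 25.7, 37.7, 8.25 and 10.6 CPM at month 6 (log2 change 0.75 ± 0.35). Its first 3 month 6 replicates were the highest of all 10 libraries. miR-374b-5p, its neighbour, was instead highest in the 3 libraries that stand apart, at 1665, 1911 and 1854 CPM, against 253 to 828 CPM in the other 7.

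The DLK1-DIO3 cluster is an imprinted locus whose miRNAs are expressed in fetal tissues and in stroma. Of 64 entries 48 passed the filter, 33 with a change above 0 and 15 below, and 0 were called. Over all miRNAs tested, 198 of 331 had a change above 0 and 133 below. The median was 0.15, or 0.03 without the 3 libraries. At an unadjusted p under 0.05, 4 members were higher: miR-494, miR-758, miR-409-5p and miR-380-5p. miR-494 was at 80.3, 112, 89.9, 130 and 54.0 CPM at month 4 and at 167, 135, 261, 89.2 and 261 CPM at month 6 (log2 change 0.80 ± 0.32), with every month 6 library but replicate 4 above the month 4 maximum. The same held for miR-409-5p, at 99.5 to 144 CPM at month 4 and, in replicates 1 to 5 of month 6, at 242, 189, 269, 96.8 and 222 CPM (log2 change 0.54 ± 0.25). miR-758 was at 5.27 to 10.6 CPM at month 4 and at 7.83 to 23.5 CPM at month 6. The largest change, 3.30 ± 1.71, was that of miR-544-5p, which stayed at or under 1.10 CPM. Members also lay on the other side of 0, with miR-432-5p at -0.65 and miR-493-5p at -0.45.

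Counted over all tested miRNAs, 43 (13.0%) had at least 3 month 6 libraries above the month 4 maximum. Among them were 4 of the 5 tested members of the miR-200 family and both arms of miR-9. The choice of this measure followed a look at the values, and it is given as a description. No such count was made for the lower direction. There, miR-215-5p, miR-214-5p and miR-320-3p had at least 3 month 6 libraries below the month 4 minimum.

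**Figure D2:**
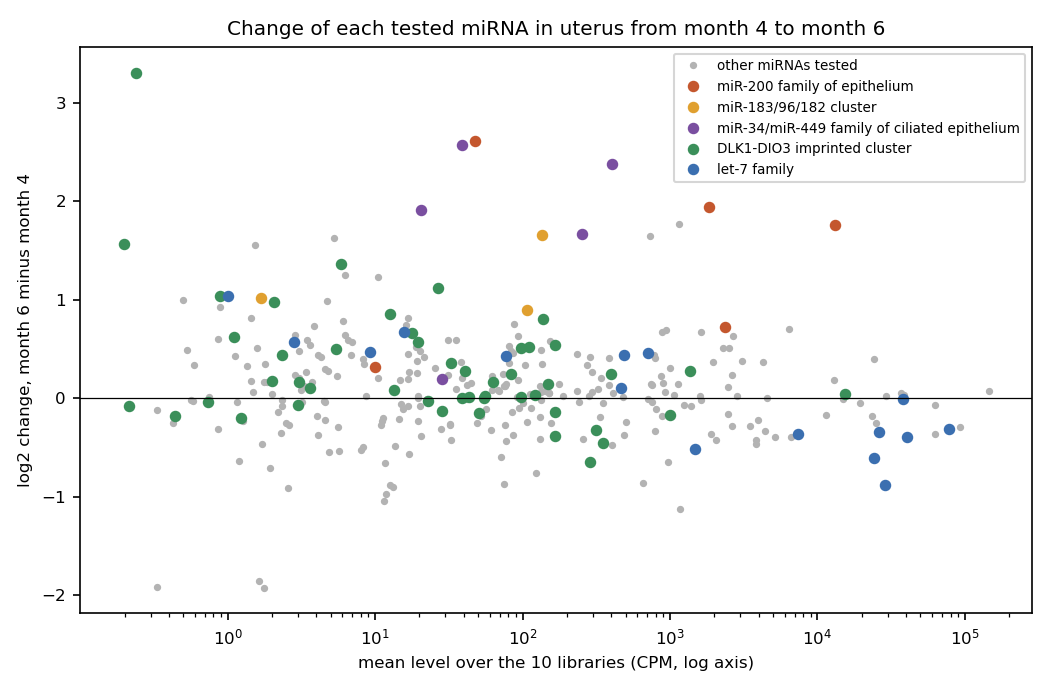
Log2 change from month 4 to month 6 in uterus (vertical) against the mean level over the 10 libraries (CPM, log axis) for the 331 tested miRNAs, with 5 lists in colour. The members of the miR-200 family with the largest changes, miR-429, miR-200a and miR-200b, lie at 2.61, 1.94 and 1.75, and the let-7 members at the right, with over 1000 CPM, lie below 0.

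Muscle and other cell types that a piece of uterus could hold were followed by their own lists, and no member of these was called. The smooth muscle miR-143-3p was at 136222 ± 49425 CPM at month 4 and at 154175 ± 34538 CPM at month 6 (mean ± SD over 5 libraries). The 4 members of the miR-143/miR-145 cluster had a median of 0.31 (0.37 without the 3 libraries that stand apart), all above 0, and the summed level of the list ran from 108270 to 219860 CPM at month 4 and from 153268 to 249840 CPM at month 6. In striated muscle miRNAs the median of 6 members was 0.13, and it turned to -0.22 without the 3 libraries. In endothelial miR-126, with 2 arms, it was 0.26 and turned to -0.15. Red blood cell miRNAs had 2 tested members with a median of -0.14 (-0.09 without the 3 libraries), and their summed level was highest in month 4 replicate 5 at 174 CPM, against 13.9 to 76.2 CPM in the others. The liver miRNA miR-122 was at 0.318 to 7.76 CPM, with a log2 change of 0.27 (0.11 without the 3 libraries).

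Gonad and granulosa cell miRNAs had 2 of 5 entries tested, which lay on opposite sides of 0. Their median of 0.14 turned to -0.11 without the 3 libraries. miR-21-5p, which is also widely expressed outside the gonads, was at 4821, 2557, 4502, 6579 and 4710 CPM at month 4 and at 5682, 7400, 10208, 7691 and 10023 CPM at month 6. All month 6 libraries but replicate 1 were above the month 4 maximum. Its log2 change was 0.71 ± 0.51 (edgeR adjusted p = 0.993), and 0.70 without the 3 libraries. miR-320-3p was at 3682, 3878, 4961, 4609 and 4484 CPM at month 4 and at 2407, 2803, 2296, 4789 and 4372 CPM at month 6. Replicates 1, 2 and 3 of month 6 were below every month 4 library, and the log2 change was -0.42 ± 0.35, or -0.93 without the 3 libraries.

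Leukocyte miRNAs had a median of -0.37 over 7 tested members, with 2 above 0, 5 below and 0 called. Without the 3 libraries that stand apart the median was -0.29, and 5 other lists had lower ones. miR-155-5p, known from activated lymphocytes, was at 607, 804, 878, 205 and 1701 CPM at month 4 and at 610, 610, 871, 165 and 145 CPM at month 6 (log2 change -0.86 ± 0.44, edgeR adjusted p = 0.993). Its lowest levels were those of the 3 libraries that stand apart and its highest that of month 4 replicate 5, while the 3 other month 6 libraries lay within the range of the 3 other month 4 libraries. miR-150 of mature lymphocytes was at 455, 564, 674, 440 and 606 CPM at month 4 and at 212, 490, 281, 538 and 647 CPM at month 6, and the groups overlapped.

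In stromal and position-linked lists 0 members were called, and their medians moved when the 3 libraries were left out. miR-199/miR-214, listed for fibroblasts and stroma, had 5 members with a median of -0.01, or -0.30 without the 3 libraries. Its miR-214-5p was at 71.6, 73.9, 82.0, 129 and 62.7 CPM at month 4 and at 37.4, 51.1, 57.9, 80.0 and 70.7 CPM at month 6 (log2 change -0.59 ± 0.32), with replicates 1, 2 and 3 of month 6 below every month 4 library. The miR-29 family, whose targets include collagen genes, had a median of 0.12 over 5 members, which turned to -0.28. HOX-embedded miRNAs had a median of 0.01 over 6 members, or 0.21 without the 3, led by miR-10b-5p at 97028 ± 52719 CPM at month 4 and 88384 ± 17079 CPM at month 6.

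In lists linked to growth and the cell cycle, 0 members were called and the medians lay between -0.16 and 0.49. The miR-30 family had the highest, 0.49 over 11 members, of which 9 were above 0. Its summed level was 10839, 12518 and 14117 CPM in the 3 libraries that stand apart and 3136 to 7055 CPM in the other 7, and its median was 0.14 without the 3. The miR-15/miR-16 family, which represses cyclins, had the lowest, -0.16 over 8 members (-0.20 without the 3). Between them lay the miR-424/miR-503 cluster (0.16 over 6), the miR-181 family (0.12 over 4), the miR-99/miR-100 family with miR-125 (0.03 over 9), the miR-17-92 cluster and its paralogs (0.01 over 16), the miR-23/miR-27/miR-24 clusters (-0.01 over 9) and the miR-221/miR-222 cluster (-0.04 over 3). Without the 3 libraries the median over all miRNAs was -0.06, and those of these lists were -0.51 for miR-99/miR-100 with miR-125, -0.33 for miR-23/miR-27/miR-24, -0.31 for miR-17-92 and -0.04 for miR-424/miR-503. The other 2 were 0.14 for miR-181 and -0.07 for miR-221/miR-222.

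**Figure D3:**
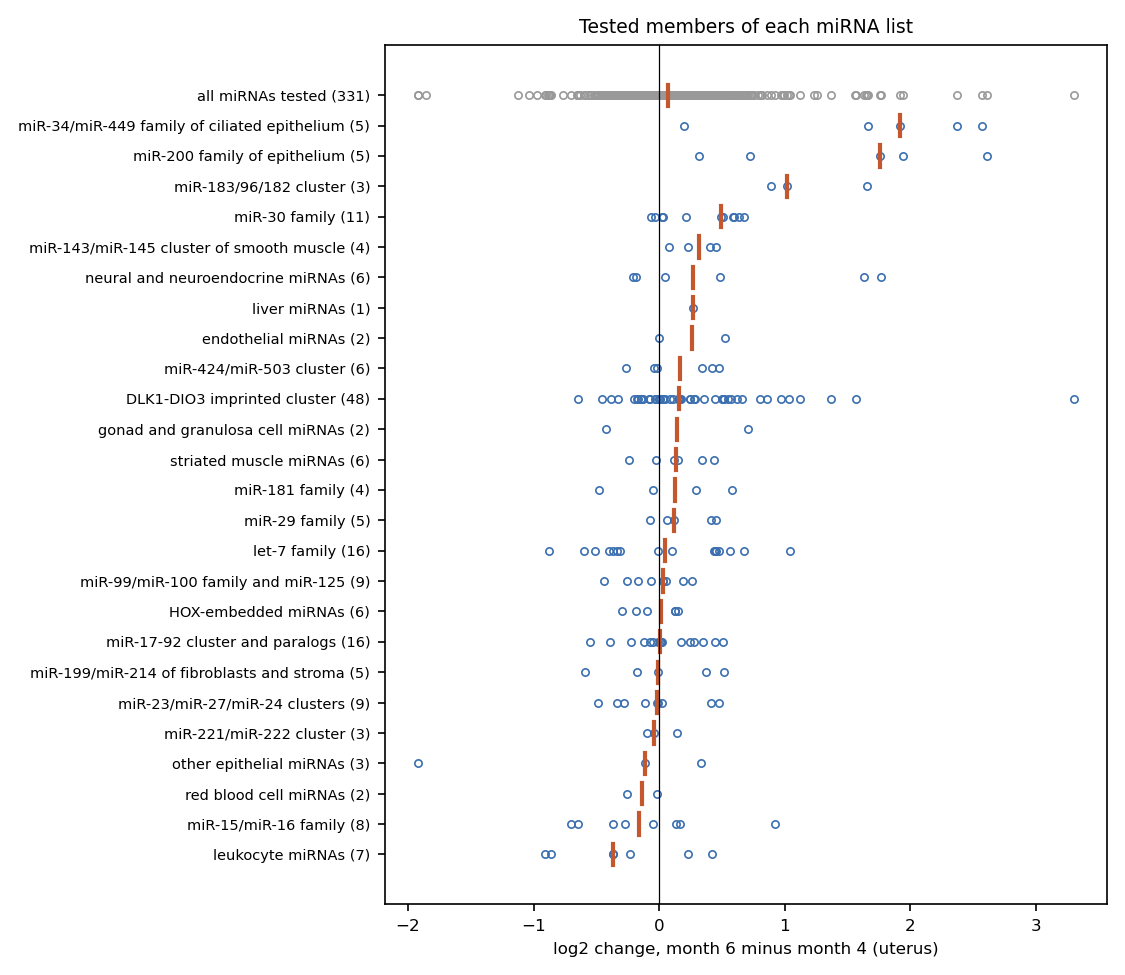
Log2 change from month 4 to month 6 in uterus (horizontal) of the tested members of each list (circles, number in brackets), with the median as an orange bar. The 3 epithelial lists near the top have medians of 1.92, 1.75 and 1.02, against 0.07 over all 331 miRNAs. The 1.92 is that of miR-34/miR-449 and rested on month 6 replicate 3. The list of other epithelial miRNAs, of which only miR-192-5p, miR-194 and miR-215-5p were tested, has a median of -0.11.

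Among miRNAs with a mean of at least 10 CPM, which leaves out miR-215-5p, the 10 with the smallest unadjusted p in the lower direction included 1 under 0.05, miR-3432-5p (log2 change -1.12 ± 0.52). It was at 643, 991, 898, 391 and 5155 CPM at month 4 and at 950, 927, 1003, 390 and 378 CPM at month 6. Apart from the 5155 CPM of month 4 replicate 5, month 4 ran from 391 to 991 CPM and month 6 from 378 to 1003 CPM. The rest were let-7c-5p, miR-155-5p, miR-335-3p, miR-342-5p, miR-214-5p, let-7i-5p, miR-130a-3p, miR-16b-5p and miR-224-5p, with log2 changes from -0.88 to -0.43. miR-335-3p, from an intron of the imprinted gene MEST, was at 358 CPM in month 4 replicate 5 and at 51.5 to 156 CPM in the other 9 libraries.

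The arms of the let-7 family, which represses growth genes and is abundant in mature tissue, lay on opposite sides of 0. Of 9 tested 5p members 8 were below 0 with a median of -0.37, and of 7 tested 3p members 7 were above 0 with a median of 0.47, a split chosen after the values were seen. Over all miRNAs, 79 of 145 5p arms and 82 of 134 3p arms were above 0. let-7c-5p was at 22023, 38422, 44021, 9304 and 70475 CPM at month 4 and at 29465, 29628, 31997, 4815 and 8725 CPM at month 6 (log2 change -0.88 ± 0.44). Its lowest levels were those of the 3 libraries that stand apart, of which month 6 holds 2. let-7b-3p had its highest levels in these same libraries, as given above. Without them the 3p members had a median of -0.29, with 2 of 6 above 0, and the 5p members a median of -0.14. Across 102 hairpins with both arms tested, 61 had arms on the same side of 0.

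**Figure D4:**
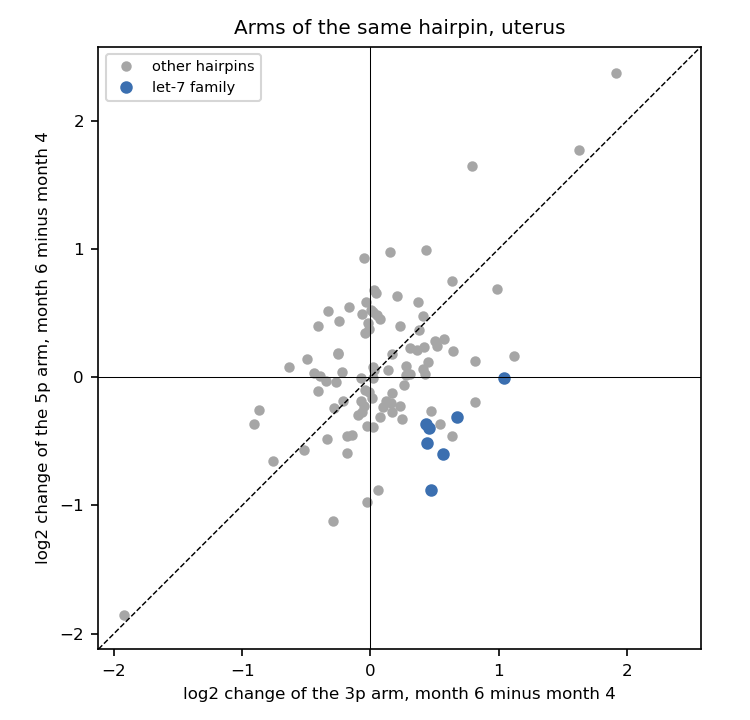
Log2 change from month 4 to month 6 of the 5p arm (vertical) against that of the 3p arm (horizontal) for 102 hairpins of the uterus, with the line of equal change dashed. The 7 let-7 hairpins (blue) lie right of 0 and below 0, and the 2 arms of miR-9 lie together at 1.77 and 1.63.

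Without the 3 libraries that stand apart, 4 libraries of month 4 and 3 of month 6 remained, and 6 of 346 miRNAs (1.73%) were called, 5 of them higher (1.45%). Called higher were miR-429 (log2 change 3.29 ± 0.63, adjusted p = 0.0152), miR-9-5p (2.53 ± 0.49, adjusted p = 0.0152), miR-200a (2.86 ± 0.68, adjusted p = 0.0368), miR-183 (2.37 ± 0.56, adjusted p = 0.0368) and miR-421-3p (1.25 ± 0.29, adjusted p = 0.0368). miR-215-5p was called lower (-3.86 ± 0.82, adjusted p = 0.0259). Its month 6 replicates 1, 2 and 3 held 3, 0 and 0 reads, so the size of this change rests on a few reads. miR-200b was just outside (2.33 ± 0.59, adjusted p = 0.0562). In all 6 miRNAs called, the month 6 libraries left out, replicates 4 and 5, were those least in the direction of the call. The libraries to leave out were chosen with these data known, so the adjusted p-values of this fit are given as a description. Each call rested on single libraries as well: with each of the 7 left out in turn, miR-429 and miR-9-5p were called in 4 of 7 fits, miR-215-5p in 3, miR-200a in 2, and miR-183 and miR-421-3p in 1. No call was made without month 4 replicate 1, month 4 replicate 3 or month 6 replicate 2. The log2 changes in these fits ran from 2.87 to 3.89 for miR-429 and from 2.00 to 2.74 for miR-9-5p. For both miRNAs the sign could not turn, because the 3 month 6 libraries that remained were above every month 4 library. When uterus month 2 replicate 1 was left out too, 3 were called: miR-429, miR-9-5p and miR-215-5p.

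Over all ages of the uterus, miR-429, miR-200a, miR-200b, miR-183 and miR-9-5p had their lowest mean at month 4, while miR-200c and miR-141 did not. miR-429 was at 141 ± 38.6 CPM at day 1, 34.7 ± 7.47 CPM at month 2, 11.7 ± 8.56 CPM at month 4 and 83.3 ± 74.0 CPM at month 6 (mean ± SD over 5 libraries). miR-200a followed the same order, at 3428 ± 1268, 1031 ± 407, 663 ± 369 and 3019 ± 2539 CPM. For miR-200b the means of day 1, month 2 and month 4 lay within their spread, at 8734 ± 3877, 6602 ± 2522 and 5436 ± 3523 CPM, and 3 month 6 libraries were above the 12864 CPM that was the highest of the earlier ages. miR-200c had its lowest mean at day 1, with 1294 ± 410, 1791 ± 636, 1667 ± 962 and 3087 ± 1300 CPM from day 1 to month 6. miR-141 was at 40.8 ± 7.68 CPM at day 1 and at 5.81 ± 6.42, 8.17 ± 11.1 and 12.0 ± 6.98 CPM later, means that lay within their spread. miR-183 was at 231 ± 127, 126 ± 21.2, 58.8 ± 30.3 and 210.5 ± 207 CPM. miR-9-5p was at 1005 ± 556 CPM at day 1 and at 957 ± 367 CPM at month 2, against 468 ± 177 CPM at month 4 and 1842 ± 1336 CPM at month 6. The spread at month 6 was the widest of the 4 ages for each of these miRNAs except miR-141.

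**Figure D5:**
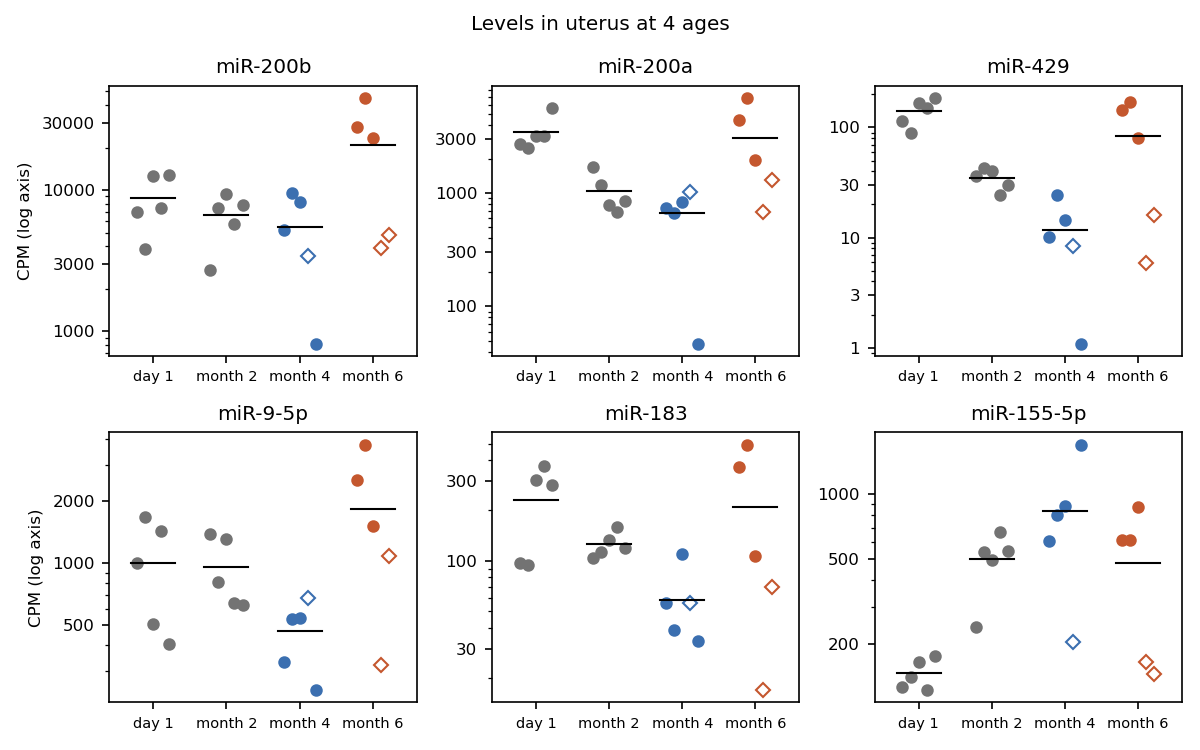
Level (CPM, log axis) of 6 miRNAs in the 5 uterus libraries of each of 4 ages, with the mean as a black line and the 3 libraries that stand apart as open diamonds. miR-429 goes from 141 CPM at day 1 to 11.7 CPM at month 4 and 83.3 CPM at month 6, and the open symbols of miR-155-5p lie at 145 to 205 CPM.

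The ovary over the same ages served as the comparison tissue, in a fit of all 40 libraries that tested the uterine change minus the ovarian one. The labels number individuals 1 to 5 in both tissues and do not say whether a shared number marks the same goat. The fit treated all 40 libraries as independent. Of 350 miRNAs 0 (0%) were called, the smallest adjusted p was 0.814 by edgeR, and 13 (3.71%) had an unadjusted p under 0.05. By DESeq2 0 were called, with 18 at an unadjusted p under 0.05. The median difference over all miRNAs was -0.21, and it was 0.20 with library totals alone, which moved the unadjusted split from 9 higher and 4 lower to 25 and 0. miR-9-5p had the largest evidence of a difference, 1.97 ± 0.60 (unadjusted p = 0.00245). In ovary it was at 104, 109, 174, 204 and 117 CPM at month 4 and at 143, 60.6, 75.4, 123 and 114 CPM at month 6, and its ovarian change was -0.16 ± 0.42. Of the other miRNAs with positive differences, miR-183 was at 2.34 ± 1.02. Ovarian miR-183 was at 45.0 ± 77.2 CPM at month 6, with replicate 1 at 183 CPM and the others at 6.33 to 17.6 CPM. Without ovary month 6 replicate 1 the difference was 4.49 ± 0.97 (edgeR adjusted p = 0.0162). That library was singled out by its own level of miR-183, so this adjusted p is given as a description. The differences of miR-494 (1.63 ± 0.57), miR-655 (1.06 ± 0.38) and miR-409-5p (1.07 ± 0.45), all of the DLK1-DIO3 cluster, were also above 0. In the lower direction were miR-214-5p (-1.11 ± 0.45), miR-335-5p (-1.86 ± 0.83) and miR-100-5p (-0.66 ± 0.32). For miR-429, miR-200a and miR-200b the difference was 3.03 ± 1.63, 2.51 ± 1.54 and 2.42 ± 1.73, and ovarian miR-200b spanned 48.0 to 30654 CPM at month 6. Without the 5 libraries of both tissues that stand apart, miR-9-5p was called (2.79 ± 0.62, edgeR adjusted p = 0.0316). These were the 3 of the uterus with ovary month 6 replicates 2 and 4. They were chosen with these data known, so this adjusted p is given as a description. Uterus month 6 replicates 4 and 5, both left out, were the lowest of their age in miR-9-5p. Ovary month 6 replicate 2 was likewise the lowest of its group.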

How the data were processed

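Small RNA libraries of goat uterus at months 4 and 6 were compared, 5 individuals a side. The deposited table holds whole-number read counts per mature miRNA, not normalized by the authors. Per the submitters' processing notes, cutadapt 1.16, Bowtie 1.0.1 and RSEM 1.3.0 were used, with no role or order. The build, the miRNA annotation, the mature sequences and how reads matching several paralogs were assigned are not given in the sources used here, so near-identical miRNAs are uncertain.

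Counts were fitted in R 4.3.3 with edgeR 4.0.16 on the 20 uterus libraries, with age as the factor, filterByExpr, trimmed mean of M values (TMM) scaling and the quasi-likelihood test. P-values were adjusted by Benjamini-Hochberg over all miRNAs tested, and an adjusted p under 0.05 was a call. The SE is the absolute log2 change divided by the square root of F. A joint fit of 40 libraries, taken as independent, tested the difference from ovary. Alternatives were DESeq2 1.42.0 and those of the closing section. The pipeline was tested on simulated data. Same-numbered libraries of both ages are not stated to share an animal, so they were not treated as pairs. Their deviations correlated from -0.223 to 0.655, with 3 of 5 pairs over 0.1. The highest was that of replicate 4, where both libraries are among those that stand apart, so these correlations cannot decide the pairing. P-values of the fits set a difference against the spread between libraries within groups. That spread was estimated over all 20 uterus libraries, or over all 40 for the difference from ovary.

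Named are, in each direction, the 10 smallest p among miRNAs with a mean of at least 10 CPM (also without the 3 libraries that stand apart), the 5 smallest of the difference from ovary, the 10 most abundant, the miR-200 family and the most abundant members of 25 lists. The lists, the 3 libraries, the ovary libraries left out with them and the comparison were chosen with earlier results of these data known. miR-215-5p, miR-9-3p, miR-211, miR-187, miR-380-5p, miR-374b-5p and list members outside this rule were named after their values were seen.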

Additional observations from a re-analysis of the deposited data

Results flagged for a closer look

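In 7 of 86 groups of 5 libraries, 1 library lay far outside the other 4. Chance gives about 1 in 20 for independent, normally spread values, which levels of miRNAs from the same libraries are not. The groups were those of the ranked miRNAs and the miR-200 family, without the list examples. Left out in this way was miR-34c-5p at month 6, with a highest level of 3157 CPM and a median of 88.8 CPM. Month 4 replicate 5 was high in miR-3432-5p (5155 CPM, next 991), let-7i-5p (62546 CPM, next 23175) and miR-342-5p (40.5 CPM, next 14.5). Month 4 replicate 4, one of the libraries that stand apart, was high in miR-148a-3p (70499 CPM, next 22606), miR-1248-5p (55.3 CPM, next 4.91) and miR-141 (27.8 CPM, next 4.35). Month 6 replicate 2 was low in miR-100-5p (7107 CPM, next 11787).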

How the results depend on the processing

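No miRNA was called between the ages by edgeR under other size factors, library totals, no or a stricter filter, only the groups compared, or with any single library left out (0 to 0). The count was 1 by DESeq2, 6 when the 3 libraries that stand apart were left out, and 3 without these and uterus month 2 replicate 1, a setting chosen after seeing the data. With the replicate block it was 0. Same-numbered libraries are not known to pair. Month 4 replicates 1 to 5 correlated best with month 6 replicates 3, 3, 3, 5 and 1, so only replicate 3 correlated best with its own number. The difference from ovary gave 1 call when the 5 libraries of both tissues that stand apart were left out, a setting also chosen with these data known. It gave 0 to 3 calls with 1 library left out: 3 without ovary month 6 replicate 1 (miR-183, miR-187 and miR-9-5p) and 1 without uterus month 6 replicate 5 (miR-9-5p).

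The log2 change of miR-99a-5p turned from -0.06 to 0.00213 with library totals. With the replicate block, miR-34b-3p turned to -0.0164, miR-34c-5p to -0.0227 and miR-449a-5p to -0.80. With libraries left out 1 at a time, or the 3 with uterus month 2 replicate 1, the ranges that crossed 0 were -0.88 to 0.33 for miR-99a-5p, -0.44 to 0.055 for miR-100-5p, -0.60 to 2.91 for miR-1248-5p, -0.71 to 0.75 for miR-148a-3p, -0.56 to 0.57 for miR-34a, -1.03 to 2.48 for miR-34b-3p, -0.82 to 2.68 for miR-34c-3p, -0.83 to 3.03 for miR-34c-5p and -2.60 to 4.07 for miR-449a-5p. For the miR-34 and miR-449 members the low end came without month 6 replicate 3. The causes of the other turns were not tested. Precision was limited by 5 libraries an age and a common biological coefficient of variation of 0.598.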
